A study of Homo sapiens with 6 samples.

Results

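The albumin gene family on human chromosome 4 has 4 members, ALB, AFP, AFM and GC, and all 4 were among the 23228 genes counted in each library. They were taken by their symbols, and they were picked because of how they differed between the control and the PELP1-KD libraries, so their levels and fold changes are given here as a description with no test. Of the 14537 genes that had enough reads to be tested, the family made up 4, and each of its members had reads in every library.

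RNA was sequenced from Hep3B, an established human hepatocellular carcinoma cell line, in 2 groups of 3 libraries each. Control cells carried a non-targeting shRNA, and PELP1-KD cells carried shRNA against PELP1, a coregulator of nuclear receptors; both were delivered by lentivirus. Cells of both groups were grown in RPMI medium, and the PELP1-KD cells were kept under puromycin and used as pooled clones. The protocol names a pair of PELP1 shRNAs, the titles name 1 of them, and no label says whether the 3 libraries of a group came from separate cultures, so the spread between them may be technical.

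Control libraries held 32945954 to 34456542 reads on genes, and PELP1-KD libraries 26758363 to 31535892. PELP1 itself had 5338, 5127 and 5348 reads in control and 4318, 4135 and 4846 reads in the libraries labelled PELP1-KD. After scaling for library size this was 94.5% of control, with a log2 fold change of −0.08 (SE 0.04, adjusted p = 0.101) although the normalized reads of the groups did not overlap, so the RNA of the targeted gene does not check the labels and every direction below is that of the libraries as labelled. The hepatocyte markers APOA1, APOB, TTR, SERPINA1, FGB, TF, AMBP and ASGR1 together had 454444 to 459956 normalized reads in control and 391288 to 399491 in the PELP1-KD libraries. Of these 8, 6 (75%) were lower and 1 (12.5%), FGB, higher, against 26.8% lower and 26.8% higher over all tested genes. Their median log2 fold change was −0.39, against 0.004 over all genes. AMBP did not pass the test. The asialoglycoprotein receptor gene ASGR1 was the 1 that fell 2-fold or more (−2.07, SE 0.060, adjusted p = 3.66e-16), against 4.79% over all tested genes. Of 8 markers of other liver cells (PTPRC, CD68, PECAM1, CDH5, LYVE1, DCN, COL1A2 and KRT7), 4 were under 10 reads in every library. These were PTPRC, CDH5, LYVE1 and DCN, with CDH5 at 0 in all libraries. KRT7 had 6, 3 and 4 reads in control and 7, 12 and 11 in the PELP1-KD libraries. The list summed to 2121 to 2268 normalized reads in control and to 2921 to 3158 in the PELP1-KD libraries, nearly all from CD68 and COL1A2, which rose by 0.48 and 0.51 on the log2 scale (adjusted p = 1.25e-07 and 2.85e-07). These 2 were the ones called of 3 markers with enough reads to be tested, too few to set against the 26.8%. The part of this rise in the results was not tested.

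The genes of this family arose from a common ancestor and encode related carrier proteins that the liver secretes into blood. ALB encodes albumin, the main protein of adult plasma, which carries fatty acids, hormones and drugs. AFP encodes alpha-fetoprotein, its fetal counterpart, which is silenced in liver after birth and made again by many hepatocellular carcinomas. AFM encodes afamin, a carrier of vitamin E and of Wnt proteins, and GC encodes the vitamin D binding protein, which also binds actin released from damaged cells. The ALB and AFP promoters are known targets of HNF4A, C/EBP, FOXA and NF-Y factors.

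In the hg19 coordinates of the count tables, ALB (chr4:74269972-74287129), AFP (chr4:74301933-74321492) and AFM (chr4:74347462-74369718) lie in this order on the plus strand. The gap from ALB to AFP is 14803 bases and that from AFP to AFM is 25969 bases. GC (chr4:72607411-72671237) lies on the minus strand, 1599 kb from ALB. Each of the 4 has 15 exon entries in the tables, with 2247 exon bases for ALB, 2032 for AFP, 1997 for AFM and 2266 for GC, and no other gene has exons that overlap theirs.

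The promoters of 3 members are shown because these genes stand side by side on 1 strand and differed in how their levels compared between the groups. They are RefSeq sequences of GRCh38.p14, a different build from that of the count tables, on the plus strand, from 250 bases before to 50 bases after the annotated start. ALB is at chr4:73404037-73404336, AFP at chr4:73435971-73436270 and AFM at chr4:73481495-73481794. GC was not matched in the promoter table. Capitals mark the letters CCAAT, known for the factor NF-Y, and TATAAA, the TATA box, each searched on both strands with no mismatch (CCAAT on the other strand reads ATTGG).
ALB: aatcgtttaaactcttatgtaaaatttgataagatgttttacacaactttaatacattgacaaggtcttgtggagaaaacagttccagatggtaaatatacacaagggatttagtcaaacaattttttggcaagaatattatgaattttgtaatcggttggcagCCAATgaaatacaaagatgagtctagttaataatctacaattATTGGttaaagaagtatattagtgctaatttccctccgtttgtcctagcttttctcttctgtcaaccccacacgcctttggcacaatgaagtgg
AFP: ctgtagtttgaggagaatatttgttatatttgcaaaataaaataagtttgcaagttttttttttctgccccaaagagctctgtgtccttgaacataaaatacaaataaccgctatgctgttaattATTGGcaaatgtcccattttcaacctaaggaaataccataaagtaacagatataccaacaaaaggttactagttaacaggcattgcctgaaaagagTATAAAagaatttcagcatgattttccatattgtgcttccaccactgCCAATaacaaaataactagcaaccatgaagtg
AFM: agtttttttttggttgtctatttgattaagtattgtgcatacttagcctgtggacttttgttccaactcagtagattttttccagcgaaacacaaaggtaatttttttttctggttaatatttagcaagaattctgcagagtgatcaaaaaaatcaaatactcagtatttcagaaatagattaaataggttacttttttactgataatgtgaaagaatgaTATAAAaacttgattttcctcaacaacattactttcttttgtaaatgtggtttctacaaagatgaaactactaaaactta

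Positions count from the start, with −1 as the base just before it. CCAAT was found in ALB from −86 and, on the other strand, from −44. In AFP it was found from 19 and, on the other strand, from −125, and the AFM window held none. Of the 35116 RefSeq promoters of this length, 12155 (34.6%) hold it on either strand. The letters TATAAA were found in AFP from −29 and in AFM from −30, against 11.5% of all promoters, and not in the ALB window. These matches are descriptions of letters and no binding was measured.

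ALB was the most sequenced gene in all 6 libraries. It had 380318, 367478 and 358156 reads in control and 223907, 196116 and 224026 reads in the PELP1-KD libraries, which is 1.08% to 1.12% of all reads on genes in control and 0.710% to 0.738% in PELP1-KD. The groups did not overlap. Scaled for library size, ALB had 347499 ± 5369 normalized reads (SD, n = 3) in control and 227274 ± 3053 (SD, n = 3) in PELP1-KD, or 65.4% of control (log2 fold change −0.61, SE 0.025, 95% interval −0.68 to −0.54). In bulk RNA, fewer cells making a transcript and less of it per cell cannot be told apart.

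AFP differed in the other direction. It had 157018, 149898 and 143310 reads in control and 218918, 188014 and 210933 in the PELP1-KD libraries. All 3 PELP1-KD libraries were above all 3 control libraries although they held fewer reads in total. The means were 141438 ± 4100 normalized reads (SD, n = 3) in control and 218061 ± 6819 (SD, n = 3) in PELP1-KD, or 1.54-fold of control (log2 fold change 0.62, SE 0.029, 95% interval 0.54 to 0.71). By reads AFP held rank 8 in every control library and rank 2 or 3 in the PELP1-KD libraries.

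The lower level of ALB and the higher level of AFP were of almost the same size on the log2 scale. As a share of the reads of the 4 genes, ALB took 67.8% to 68.3% in control and 50.5% to 51.4% in PELP1-KD, and AFP took 27.3% to 28.0% in control and 48.4% to 49.4% in PELP1-KD. Levels between genes are compared per exon length, as reads per kilobase of exon scaled to library size (RPKM). ALB had 4921 ± 76.0 RPKM in control and 3219 ± 43.2 RPKM in PELP1-KD, and AFP had 2215 ± 64.2 and 3415 ± 107 RPKM (SD, n = 3 each). The AFP level over the ALB level per length was 0.457, 0.451 and 0.442 in control and 1.08, 1.06 and 1.04 in PELP1-KD, a 2.36-fold difference of the means. By reads ALB stayed above AFP in every library, but per length AFP was above ALB in the 3 PELP1-KD libraries and below it in the 3 control libraries. The sum of both RPKM levels was 7136 ± 138 in control and 6633 ± 149 in PELP1-KD (SD, n = 3), 93.0% of control.

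**Figure D1:**
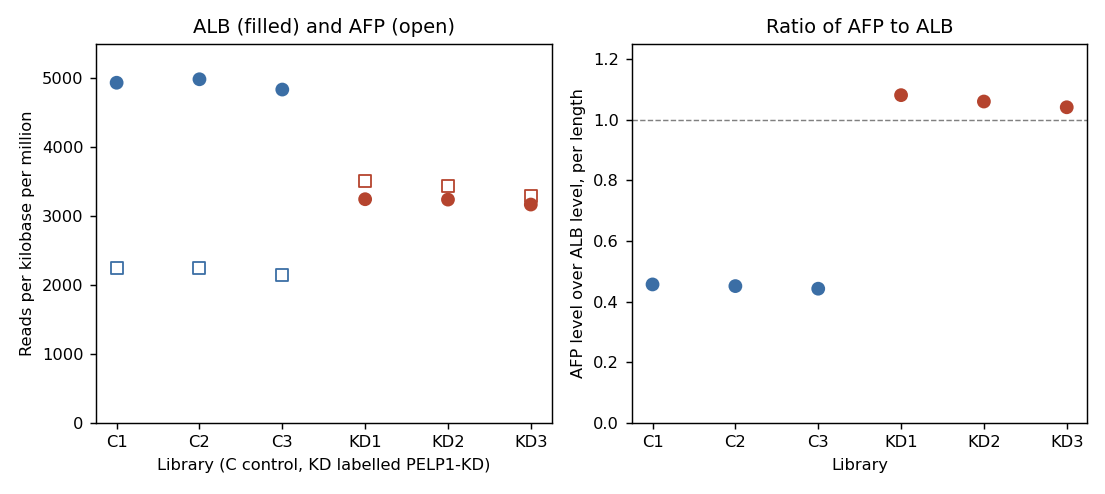
The left panel plots RPKM (linear axis from 0) of ALB (filled) and AFP (open) in each of the 6 libraries, and the right panel the AFP over ALB ratio per exon length with a dashed line at 1. The 3 control libraries lie at 0.442 to 0.457 and the 3 PELP1-KD libraries at 1.04 to 1.08, on the other side of the line.

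The gene of the vitamin D binding protein, GC, had the largest difference of the 4. Its reads numbered 23344, 22861 and 22655 in control and 700, 595 and 703 in the PELP1-KD libraries. The groups were separated by over an order of magnitude, and both were tight within themselves. Normalized reads were 21641 ± 257 (SD, n = 3) in control and 704 ± 11.4 (SD, n = 3) in PELP1-KD, which is 3.25% of control (log2 fold change −4.94, SE 0.040, 95% interval −5.05 to −4.83). By reads GC ranked between 135 and 141 in control and between 7509 and 7634 in PELP1-KD, and its level was 304 ± 3.61 RPKM in control and 9.89 ± 0.159 RPKM in PELP1-KD (SD, n = 3). The ALB level was 16.2 ± 0.244 times the GC level per length in control and 325 ± 6.05 times in PELP1-KD.

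AFM, the gene for afamin, had few reads and ranked between 12650 and 13200 by reads. It had 37, 48 and 41 reads in control and 41, 38 and 28 in the PELP1-KD libraries, and the groups overlapped. Pooled, these are 126 reads (exact Poisson 95% interval 105 to 150) and 107 reads (87.7 to 129), intervals that cover counting error only. The log2 fold change was −0.07 (SE 0.23, 95% interval −0.71 to 0.58), an interval that takes in no difference and the value of ALB alike. Its sign rested on single libraries, since the value was 0.05 without control replicate 2 and 0.12 without PELP1-KD replicate 3. Its level of 0.632 ± 0.097 RPKM in control and 0.607 ± 0.141 RPKM in PELP1-KD (SD, n = 3) stood far below those of ALB and AFP, which lie before it on the same strand.

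**Figure D2:**
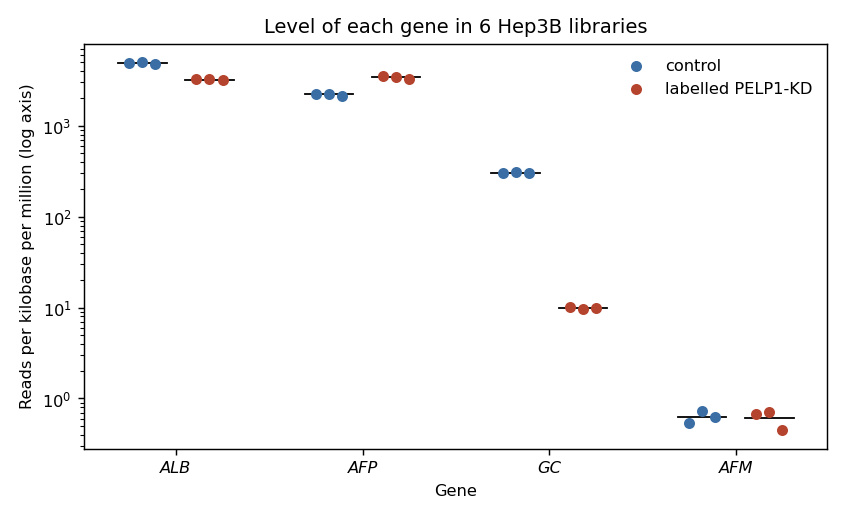
RPKM of ALB, AFP, AFM and GC on a log axis, with a point per library and a bar at the mean of the 3 control or 3 PELP1-KD libraries. ALB and GC lie lower and AFP higher in PELP1-KD, while the AFM points of the groups overlap near 0.6 RPKM.

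The order of levels per length was thus ALB, AFP, GC, AFM in control and AFP, ALB, GC, AFM in PELP1-KD, and no neighbours in either order had ranges that overlapped. ALB, AFP and GC had groups that did not overlap, which also held for 8549 of the 14537 tested genes (58.8%), and since the members were chosen on this contrast nothing is read from it. The 4 genes together took 1.62% ± 0.033 of reads in control and 1.43% ± 0.042 in PELP1-KD (SD, n = 3).

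Replicate spread differed with depth. For ALB the coefficient of variation over replicates was 1.55% in control and 1.34% in PELP1-KD, against 0.165% and 0.216% from counting alone, and for AFP it was 2.90% and 3.13% against 0.258% and 0.220%. In both groups replicate 3 had the lowest normalized ALB and AFP. For AFM the spread was 15.3% and 23.2% against 15.4% and 16.7% from counting, so counting noise is most of it. For GC it was 1.19% against 0.660% in control and 1.61% against 3.87% in PELP1-KD.

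The genes with the profile most like each member over the 6 libraries were found by the root mean square distance between log2 normalized reads centred on each gene's mean, among the 11766 genes that averaged 100 normalized reads or more. Nearest to ALB were DCTD, a deoxycytidylate deaminase, at a distance of 0.0136, PELI1, a ubiquitin ligase, at 0.0225 and MUTED-TXNDC5 at 0.0244, which overlaps TXNDC5 and is therefore uncertain. DCTD went from 1266 ± 14.0 to 834 ± 7.54 normalized reads. Nearest to AFP were ALDH1A1, a retinaldehyde dehydrogenase, at 0.0137, TRIM2, a ubiquitin ligase, at 0.0209 and ACBD5, a peroxisomal protein, at 0.0247. ALDH1A1 went from 40163 ± 1117 to 62884 ± 1401 normalized reads (SD, n = 3). Among the genes most like GC were the noncoding RNA IPW at 0.194 and the proteoglycan gene BGN at 0.216, with log2 fold changes of −4.67 and −5.30. BGN went from 977 ± 67.6 to 24.9 ± 3.57 normalized reads (SD, n = 3). Nearest to AFM were CBWD3 and CBWD5, near-identical copies whose counts are uncertain, at 0.0631 and 0.0632, and ZNF432 at 0.105. The AFM profile rests on 28 to 48 reads per library, so nothing is read from its nearest genes.

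The neighbourhood of the family was described by position only. Of 24 genes with exons within 1 Mb of a member, 19 were tested, and 6 (31.6%) were lower and 7 (36.8%) higher in PELP1-KD at an adjusted p below 0.05 (edgeR's quasi-likelihood test, Benjamini-Hochberg adjustment). Over all tested genes 26.8% were lower and 26.8% higher. At 2-fold or more 1 neighbour was lower and 1 higher, against 4.79% lower and 2.85% higher over all genes. The median log2 fold change of the neighbours was 0.05, against 0.004 over all genes.

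SLC4A4, a sodium bicarbonate transporter 170 kb from GC, fell from 551 ± 22.9 to 251 ± 32.6 normalized reads (log2 fold change −1.14, SE 0.087, adjusted p = 1.21e-09). RASSF6, a member of the Ras association domain family 69.1 kb past AFM, rose from 56.7 ± 9.64 to 183 ± 13.6 (1.69, SE 0.14, adjusted p = 5.46e-09). ANKRD17, an ankyrin repeat protein gene 145 kb before ALB, fell by less, from 3194 ± 34.3 to 2821 ± 168 (−0.18, SE 0.044, adjusted p = 0.00209).

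Farther out, the chemokine genes past RASSF6 were mixed. CXCL5, CXCL3, IL8 and CXCL2, ligands of neutrophil chemokine receptors, rose with log2 fold changes of 0.43, 0.47, 0.35 and 0.23 (adjusted p = 1.83e-06, 1.48e-07, 1.2e-05 and 0.00137), while CXCL6 fell by 0.63 on the log2 scale (adjusted p = 8.13e-08) and CXCL1 did not pass the test (0.03, adjusted p = 0.593). EREG, a ligand of the EGF receptor, fell (−0.99, adjusted p = 2.61e-08). Before GC, the RNA-binding protein gene GRSF1 (−0.24, adjusted p = 3.78e-05) and the deoxycytidine kinase gene DCK (−0.32, adjusted p = 0.000207) fell. RUFY3, MOBKL1A, COX18 and MTHFD2L did not pass the test, with log2 fold changes of −0.03, 0.08, 0.08 and 0.05, though MOBKL1A did without PELP1-KD replicate 3 (0.17, adjusted p = 0.0194).

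**Figure D3:**
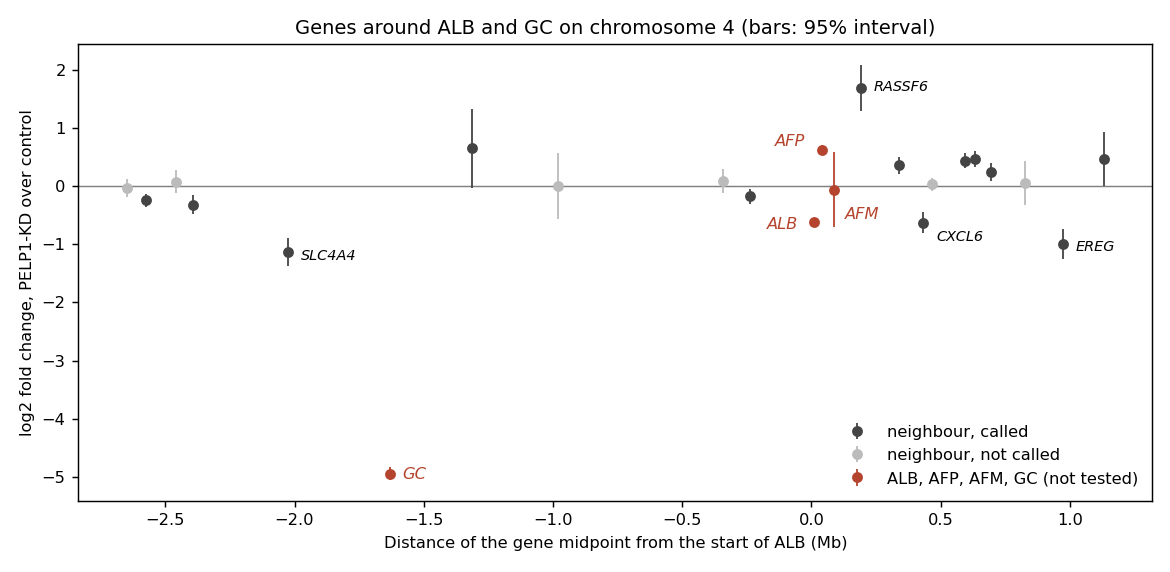
Log2 fold change (PELP1-KD over control) with its 95% interval against the distance of a gene's midpoint from the ALB start in Mb, for the 4 members and the 19 tested neighbours. SLC4A4 (−1.14) and RASSF6 (1.69) have the widest departures from 0 among the neighbours, and GC (−4.94) lies far below all.

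Of 21 transcription factors known for the ALB and AFP promoters and enhancers, all tested, 6 (28.6%) were lower and 9 (42.9%) higher in PELP1-KD, against 26.8% lower and 26.8% higher over all tested genes, so the share that was lower is near that of all genes. Their median log2 fold change was 0.06, against 0.004 over all genes. NFIC, a nuclear factor I protein, fell from 948 ± 38.1 to 407 ± 43.2 normalized reads (−1.22, SE 0.073, adjusted p = 2.66e-11), and was the only one at 2-fold. Over all tested genes 4.79% were lower at 2-fold or more. NFYA, a subunit of NF-Y (−0.73, adjusted p = 8.24e-12), and HLF, a PAR bZIP factor (−0.85, adjusted p = 2.56e-10), also fell. Those that rose most clearly were CEBPB, from 2895 ± 27.4 to 4343 ± 127 (0.58, SE 0.039, adjusted p = 1.56e-10), CEBPD (0.58, adjusted p = 1.29e-09) and GATA4, a zinc-finger factor of endoderm (0.44, adjusted p = 1.37e-08).

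A few more classical regulators of these promoters were picked after their values were seen. HNF4A, a nuclear receptor of hepatocytes, rose from 11527 ± 368 to 13554 ± 493 normalized reads (0.23, adjusted p = 1.37e-05). Besides NFYA, the NF-Y gene NFYB fell by less (−0.28, adjusted p = 0.0046) and NFYC did not pass the test (−0.10, adjusted p = 0.135). Of the FOXA genes, FOXA1 and FOXA2 did not pass the test, with −0.06 each, and FOXA3 was just past it (0.11, adjusted p = 0.0481), as was CEBPA (0.10, adjusted p = 0.0327). FOXA3 lost the call without control replicate 1, 2 or 3 (adjusted p = 0.0894, 0.145 and 0.0669) or PELP1-KD replicate 2 or 3 (0.0785 and 0.192). With all libraries FOXA3 also lost it under DESeq2 (0.0985) and in edgeR with DESeq2 size factors (0.0571). The same held in edgeR with upper-quartile normalization (0.0523) or at least 10 reads in every library (0.0596). CEBPA lost it without control replicate 1 or 2 (adjusted p = 0.111 and 0.105) or PELP1-KD replicate 2 or 3 (0.0674 and 0.119). Under DESeq2 with all libraries CEBPA lost it too (adjusted p = 0.0575).

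**Figure D4:**
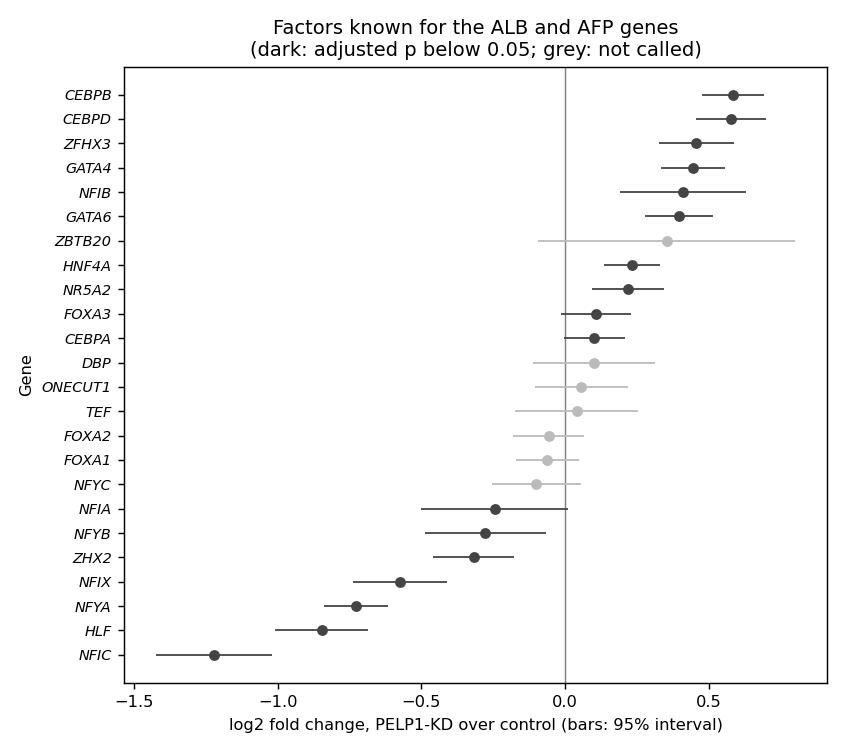
Log2 fold changes with 95% intervals of the 21 transcription factors and the 3 AFP repressors. NFIC (−1.22) has the largest fall, CEBPB and CEBPD (0.58 each) the largest rises.

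Of 3 genes known to repress AFP after birth, ZHX2 fell (1147 ± 21.6 to 919 ± 23.3, −0.32, adjusted p = 2.75e-05), whereas ZFHX3 (1433 ± 57.2 to 1967 ± 51.3, 0.46, adjusted p = 9.32e-08) rose. ZBTB20 had 94.1 ± 17.4 and 120 ± 22.6 normalized reads and an adjusted p of 0.0716. It passed the test without control replicate 3 (adjusted p = 0.0206) or PELP1-KD replicate 3 (adjusted p = 0.0136).

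Of 15 other genes of fetal liver and hepatocellular carcinoma, all tested, 11 (73.3%) were lower and 2 (13.3%) higher, against 26.8% lower and 26.8% higher over all tested genes. The genes H19 (−4.03, adjusted p = 4.51e-23, overlapping MIR675 and so uncertain), IGF2 (−1.43, overlapping INS-IGF2 and so uncertain too, from 179655 ± 3833 to 66761 ± 1696, adjusted p = 7.42e-19) and DLK1 (−8.69, adjusted p = 1.96e-20) fell by 2-fold or more. These were 3 of the 15, against 4.79% over all tested genes. DLK1 had 1626, 1607 and 1569 reads in control but only 5, 1 and 4 in PELP1-KD, so the size of its fall is uncertain. Those that rose with AFP were SPINK1, a trypsin inhibitor (0.69, SE 0.033, adjusted p = 1.2e-12), and the cell adhesion gene EPCAM (0.27, adjusted p = 1.38e-05).

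Genes of the ligands and receptors of these proteins were counted next. For vitamin D, carried by the GC protein, 3 of 11 (27.3%) were lower and 5 (45.5%) higher, against 26.8% each way over all tested genes. VDR, the vitamin D receptor, rose from 228 ± 2.92 to 417 ± 7.79 normalized reads (0.87, SE 0.077, adjusted p = 1.26e-08), and its partner RXRA fell (−0.38, adjusted p = 1.13e-07). CYP24A1, the enzyme that inactivates vitamin D, fell (−2.34, SE 0.50, adjusted p = 0.000563) but had only 17, 12 and 18 reads in control and 2, 4 and 2 in PELP1-KD. LRP2, an endocytic receptor for the GC protein, rose (0.51, adjusted p = 1.47e-07). For the uptake and recycling of albumin, 2 of 8 genes (25.0%) were lower and 5 (62.5%) higher, against the same 26.8%. The genes LRP2, CUBN and DAB2 are in this list and in that of vitamin D, so the counts of these lists are not separate results. FCGRT, whose product recycles albumin, fell from 4026 ± 107 to 3168 ± 146 (−0.35, adjusted p = 9.87e-07), while B2M, its partner, rose (0.39, adjusted p = 1.42e-08), as did the caveolin gene CAV1 (0.69, adjusted p = 1.32e-09) and SPARC, an albumin-binding matrix protein (0.48, adjusted p = 3.86e-09). For vitamin E, a cargo of afamin, 2 of 5 tested genes were lower and 1 higher, too few to set against the 26.8%. ABCA1, a lipid exporter, fell (−0.42, adjusted p = 6.22e-07) and SEC14L2, a tocopherol-binding protein gene, rose (0.51, adjusted p = 0.000411).

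Among 18 genes of other plasma proteins made by hepatocytes, 13 (72.2%) were lower and 2 (11.1%) higher, against 26.8% lower and 26.8% higher over all tested genes. APOA1, APOB, TTR, SERPINA1, FGB, TF and AMBP are also among the hepatocyte markers above, so the counts of these lists are not separate results. The median log2 fold change was −0.20, against 0.004 over all genes. AHSG, the gene of fetuin-A, fell from 28717 ± 514 to 3509 ± 153 normalized reads (−3.03, SE 0.037, adjusted p = 2.37e-22) and APOA2, an apolipoprotein of HDL, fell too (−2.66, adjusted p = 4.33e-22). SERPINA1, the gene of alpha-1-antitrypsin, fell by 0.46 (adjusted p = 6.53e-11). The 2 that rose were APOE (0.33, adjusted p = 1.15e-05) and FGB, a fibrinogen chain (0.17, adjusted p = 1.42e-05).

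**Figure D5:**
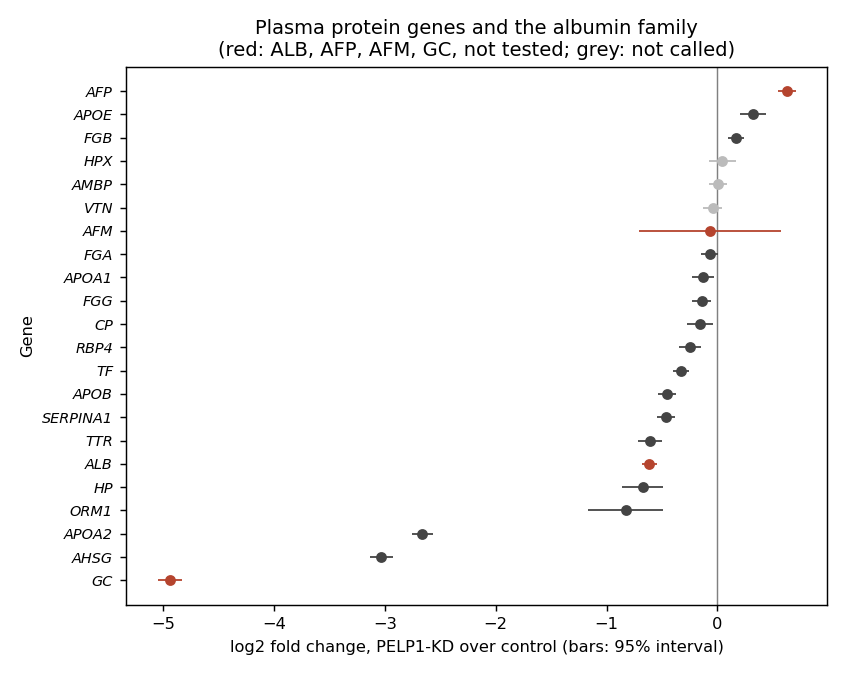
Log2 fold changes with 95% intervals of the 18 plasma protein genes and the 4 members of the family. AHSG (−3.03) and APOA2 (−2.66) stand with GC (−4.94) well below the rest, and AFP (0.62) lies above the 18 genes.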

How the data were processed

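The 3 control and 3 PELP1-KD libraries of Hep3B RNA were grouped by their labels. Per the file headers, the authors deposited estimated counts per gene (featureCounts 1.5.0-p1, hg19 exons, multi-mapping reads shared as fractions, mapping quality of at least 2). The submitters' processing notes list HISAT2, whereas the paper's methods name TopHat2 and HTSeq; the labels also differ on the library kit (stranded mRNA, single reads, or rRNA depletion, paired ends). Between 10.6% and 13.3% of values were not whole, and all were rounded.

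Fold changes and adjusted p values came from edgeR 4.0.16 (R 4.3.3; TMM, filterByExpr, robust glmQLFit and glmQLFTest, Benjamini-Hochberg over 14537 tested genes, threshold 0.05, and 2-fold where stated). The median standard error was 0.0632 on the log2 scale. Normalized reads are reads divided by the effective (TMM) library size over its geometric mean across libraries. Intervals of 95% used 4 degrees of freedom, and are therefore wider than edgeR's moderated test. Scripts were tested on simulated data. Some genes and a promoter motif are not reported here and were left out of the lists. Members and gene lists were chosen with earlier results of these data known. Named were the members, PELP1, genes among the 3 most like each member, neighbours averaging 100 normalized reads or more, and, in each list, called genes at 2-fold and up to 3 with the smallest p in each direction.

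Whether replicate numbers pair the libraries was checked. Over 6397 genes with log2 CPM above 5, deviations of same-numbered libraries from their group means correlated with r = 0.333, 0.242 and 0.665. No such correlation was computed between differently numbered libraries, so these values cannot decide whether the numbers pair the libraries. The replicate number was used as a block in an alternative only, and the results above come from the fit without it. Replicates of a group differed by more than sampling noise (chi-square per degree of freedom 1.93 to 6.93). DESeq2 1.42.0 was an alternative tool.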

Additional observations from a re-analysis of the deposited data

How the results depend on the processing

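The log2 fold changes of ALB, AFP and GC kept their direction in all 14 alternatives to normalization, tool, filter, design and libraries; those of AFM were between −0.18 and 0.12 when single libraries were left out. With the replicate block, which uses the replicate numbers, they were −0.61 (ALB), 0.62 (AFP), −0.06 (AFM) and −4.94 (GC). With it 4415 genes were lower and 4413 higher, in place of 3889 and 3899. The block added calls for NFYC, SCARB1 and VTN (adjusted p = 0.0265, 0.00282 and 0.0484) and removed none among 97 list genes and neighbours. Of the 74 called, 0 changed sign and 9 lost the call in an alternative, namely FOXA3, CEBPA, NFIA, CD24, CYP27B1, ABCB4, FGA, NPFFR2 and AREG, with adjusted p between 0.0516 and 0.217; leaving out any 1 of the 6 libraries removed at least 1 of these calls. Tested against a 2-fold change with edgeR's glmTreat, 613 genes passed in place of 1112. A promoter motif with mismatches, planned with alternatives, is not reported here. AFM's depth limits what can be said of it.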
